A study of Rattus norvegicus with 15 samples.

Results

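The interferon response and antigen presentation genes examined here are 36 rat genes in 3 classes: 20 interferon-induced genes, 8 genes of the class I antigen presentation pathway and 8 of the class II pathway. They were chosen by name. Each probe's accession was translated to a rat symbol, and a gene was kept when a probe stood well above its local background on at least 5 of 15 arrays. That left 27 of the 36 genes, with 33 probes, among 21011 probes and 8378 named genes tested on the array: 14 interferon-induced, 7 class I and 6 class II genes. Ifit1, Ifit3, Mx1, Oasl, Gbp5 and RT1-Ba had a probe that did not pass, on 0, 0, 2, 0, 1 and 0 arrays. Xaf1, Nlrc5 and RT1-DMb had no probe with a matching accession and were not analysed here.

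Expression was measured on 15 arrays, 1 for each of 15 tubular or papillary mammary tumours of female Sprague-Dawley rats, to ask whether zinc intake early in life bears on mammary tumours in adulthood. The supplemented group (5 tumours) was reared on chow with 180 mg of zinc per kg, the deficient group (5 tumours) on 3 mg per kg and the control group (5 tumours), labelled as the negative control and read here as the adequate diet, on 35 mg per kg. Each diet was fed to 16 dams from gestation day 10 and then to their daughters until day 51 of life. All animals, control rats included, were given 50 mg/kg of DMBA once by stomach tube on that day, a polycyclic hydrocarbon that induces mammary tumours, and ate adequate chow until the tumours were collected on day 180, so every tumour was taken long after the diets had ended. Whether tumours of the same diet share an animal or a litter is not stated, and p-values therefore rest only on the scatter of these 15 tumours within their diets. Because whole tumours were profiled, fewer cells of a type and less RNA per cell cannot be told apart.

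Interferons are cytokines released on infection or on sensing of nucleic acids. They bind receptors that activate STAT proteins, and STAT2 and IRF9 are parts of a complex that binds the interferon-stimulated response element (ISRE), while IRF7 and IRF1 are interferon-induced factors that bind related elements. Class I molecules, with B2m as their invariant chain, show peptides from inside the cell on nearly all cell types, whereas class II molecules are carried mainly by professional antigen-presenting cells under the control of the coactivator CIITA, which acts through the X and Y boxes of their promoters. In mammary tumours class II therefore often marks infiltrating immune cells, although epithelial cells can be induced by interferon gamma to express it.

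Promoter entries from RefSeq (assembly GRCr8) were found for 27 of the 36 listed genes, 21 of them among the tested genes, and the 250 bases before each annotated start were searched on both strands. An ISRE core, which is GAAA, any 2 bases and GAAA, was present in the promoters of 9 of the 14 interferon-induced genes with an entry, tested or not, and in 5 of 7 class I and 0 of 6 class II promoters, against 3.41% of all 33469 promoters. A GAS element, TTCNNNGAA, a site of STAT dimers, was present in 3 of 14, 1 of 7 and 0 of 6, against 7.67%. The Y box, CCAAT, was present in 6 of 6 class II promoters, against 34% of all promoters, and in 5 of 14 and 2 of 7 of the other classes. An X box core, AGNAACNG, was present in 3 of 6 class II, 6 of 14 interferon-induced and 2 of 7 class I promoters, against 14.1% of all promoters. Both boxes stood together in 3 of 6 class II, 1 of 14 interferon-induced and 0 of 7 class I promoters, against 4.56% of all promoters. X box and ISRE matches overlap in Tap1, Ifih1, Xaf1 and Ifit3, X box and GAS matches overlap in Irf9, and the ISRE pairs of Oas1a and Tapbp overlap each other. A match describes these letters and is not a measured binding site.

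The 150 bases before the start are shown, 5′ to 3′ on the strand of the gene, for 5 interferon-induced genes that set one tumour apart or, in the case of Ifi27, did not, with the ISRE core, on either strand, in capitals. Their GRCr8 positions are chr1:205800024-205800173 (- strand) for Irf7, chr12:41330316-41330465 (+ strand) for Oas1a, chr6:48788121-48788270 (- strand) for Rsad2, chr2:234005577-234005726 (+ strand) for Gbp2 and chr6:128355162-128355311 (+ strand) for Ifi27, whose other ISRE core lies farther upstream.
Irf7: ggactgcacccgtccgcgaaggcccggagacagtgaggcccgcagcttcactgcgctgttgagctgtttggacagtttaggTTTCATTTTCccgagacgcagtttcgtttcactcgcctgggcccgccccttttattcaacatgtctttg
Oas1a: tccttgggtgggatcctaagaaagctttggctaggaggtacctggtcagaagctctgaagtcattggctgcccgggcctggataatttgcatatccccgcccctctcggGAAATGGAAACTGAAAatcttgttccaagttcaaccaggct
Rsad2: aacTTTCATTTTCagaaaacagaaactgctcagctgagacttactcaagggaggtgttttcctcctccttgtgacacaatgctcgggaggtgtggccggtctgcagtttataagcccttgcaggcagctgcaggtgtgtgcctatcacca
Gbp2: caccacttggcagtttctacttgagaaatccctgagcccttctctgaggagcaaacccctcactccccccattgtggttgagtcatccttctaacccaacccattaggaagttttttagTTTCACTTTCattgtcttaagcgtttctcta
Ifi27: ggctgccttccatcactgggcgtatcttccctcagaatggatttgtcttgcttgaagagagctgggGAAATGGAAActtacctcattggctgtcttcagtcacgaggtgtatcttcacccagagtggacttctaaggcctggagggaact

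The same stretch is shown for 3 class I genes, again with the ISRE core in capitals, at chr3:129549180-129549329 (+ strand) for B2m, chr20:4668544-4668693 (- strand) for Tap1 and chr19:50743293-50743442 (- strand) for Psmb10.
B2m: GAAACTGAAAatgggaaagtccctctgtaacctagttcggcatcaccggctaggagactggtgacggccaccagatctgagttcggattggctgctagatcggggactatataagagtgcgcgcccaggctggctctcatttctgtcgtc
Tap1: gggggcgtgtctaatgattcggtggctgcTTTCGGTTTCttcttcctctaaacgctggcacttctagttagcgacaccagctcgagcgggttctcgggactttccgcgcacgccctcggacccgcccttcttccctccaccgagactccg
Psmb10: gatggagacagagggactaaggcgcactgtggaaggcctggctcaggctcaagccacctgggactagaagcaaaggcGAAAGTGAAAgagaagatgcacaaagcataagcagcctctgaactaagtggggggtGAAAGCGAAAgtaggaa

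For 3 class II genes, which varied together between tumours, the X box core and the Y box are in capitals, at chr20:4515265-4515414 (+ strand) for RT1-Da, chr20:4560163-4560312 (- strand) for RT1-Db1 and chr20:4712336-4712485 (- strand) for RT1-DMa. RT1-DMa holds a pair of Y boxes and no X box core in these letters.
RT1-Da: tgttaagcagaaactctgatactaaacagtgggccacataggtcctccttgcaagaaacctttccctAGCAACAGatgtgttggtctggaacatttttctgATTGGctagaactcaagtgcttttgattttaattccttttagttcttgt
RT1-Db1: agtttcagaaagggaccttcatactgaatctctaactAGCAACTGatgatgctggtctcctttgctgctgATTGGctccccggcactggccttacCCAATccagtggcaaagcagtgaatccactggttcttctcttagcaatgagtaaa
RT1-DMa: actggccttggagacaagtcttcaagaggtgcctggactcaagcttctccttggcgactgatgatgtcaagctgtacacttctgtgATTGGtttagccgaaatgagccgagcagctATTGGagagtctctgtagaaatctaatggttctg

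**Figure D1:**
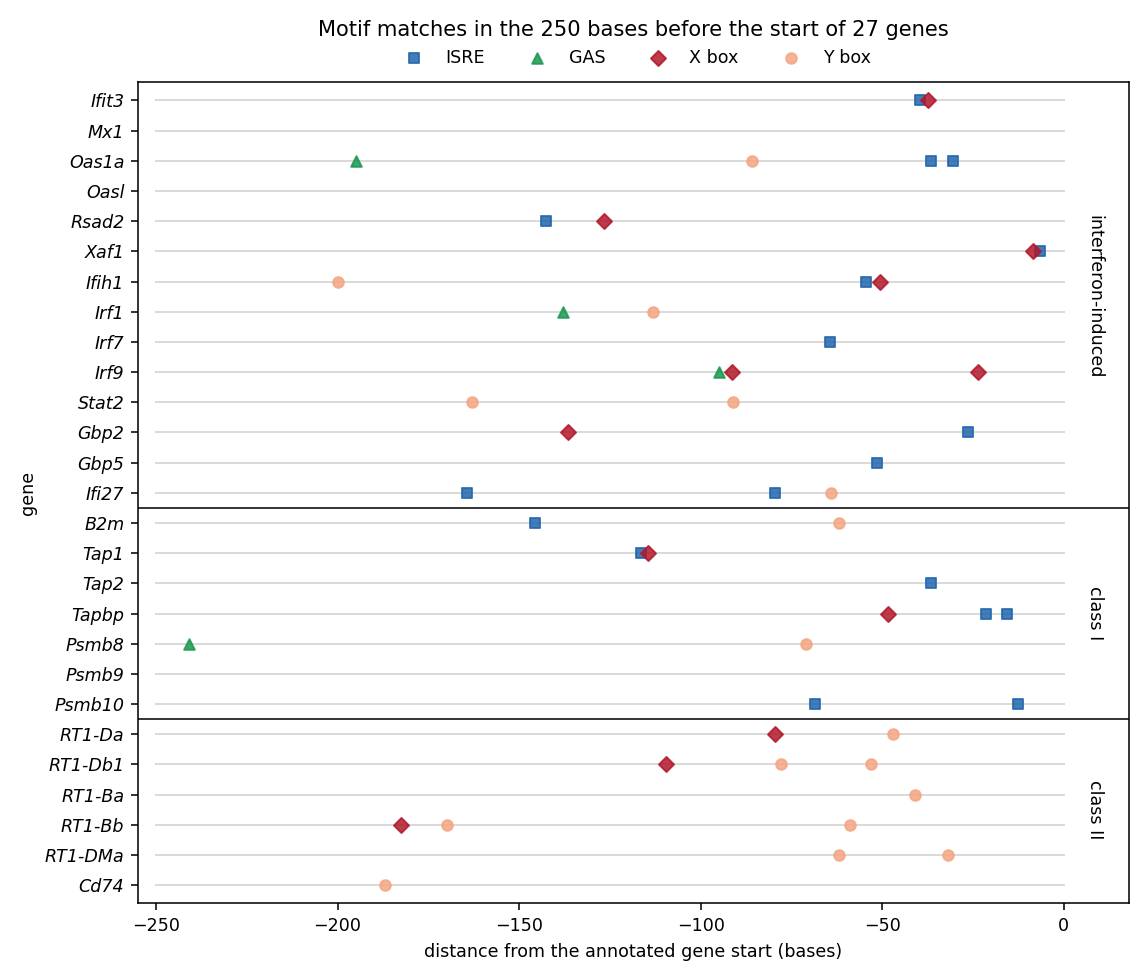
Positions of motif matches in the 250 bases before the annotated start of the 27 listed genes with a promoter entry, as distance from the start in bases; squares are ISRE cores, triangles GAS elements, diamonds X box cores and circles Y boxes, and genes run down the page by class. ISRE cores lie in 9 of 14 interferon-induced and 5 of 7 class I promoters and in 0 of 6 class II promoters, while every class II promoter shown holds a Y box.

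A level is the log2 intensity of a probe after subtracting its array's 75th percentile, so that 0 is that percentile and a step of 1 is a 2-fold change. The arrays differed in brightness, with 13854 to 24009 of 43379 spots well above background and a 75th percentile of 50.7 to 177; deficient tumours 1 and 4 and control tumour 2 were the dimmest. Every one of the 4 slides held tumours of all 3 diets, and the arrays were scanned on 2 days. Of all tested probes 15.3% had their highest level in tumour 3 of the deficient group, the largest share of any tumour. Next came deficient tumour 1 with 12.7% and deficient tumour 4 with 10.4%. Of the epithelial markers 10 of 10 measured stood above background on all 15 arrays. Within the list of leukocyte markers 7 of 8 measured genes passed, and in that of B cells and plasma cells 5 of 5, Cd79b among them, were above background on 0 arrays.

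No difference between the early-life zinc diets was detected in any of the 27 genes. In limma's moderated test 0 of 27 genes were called in supplemented against deficient tumours, 0 of 27 in supplemented against control tumours and 0 of 27 in deficient against control tumours, at an adjusted p of 0.05, and of all 21011 probes 0% were called in each of the 3 comparisons. At an unadjusted p under 0.05 the count was again 0 of 27 in every comparison, where 7.05%, 1.98% and 3.91% of all probes passed, in the same order. The moderated F test over the 3 diets called 0 of 27 as well (0% of all probes adjusted and 4.03% unadjusted; lowest unadjusted p of a member, 0.119). The groups overlapped for every gene in every comparison, against 1.5%, 0.357% and 0.39% of all probes with groups that did not. The precision differed between genes: 95% intervals of a log2 difference reached 0.29 to either side for Tapbp, 0.57 for the median gene and 1.25 for RT1-Db1, so that a 2-fold change cannot be told from none for the most variable genes.

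**Figure D2:**
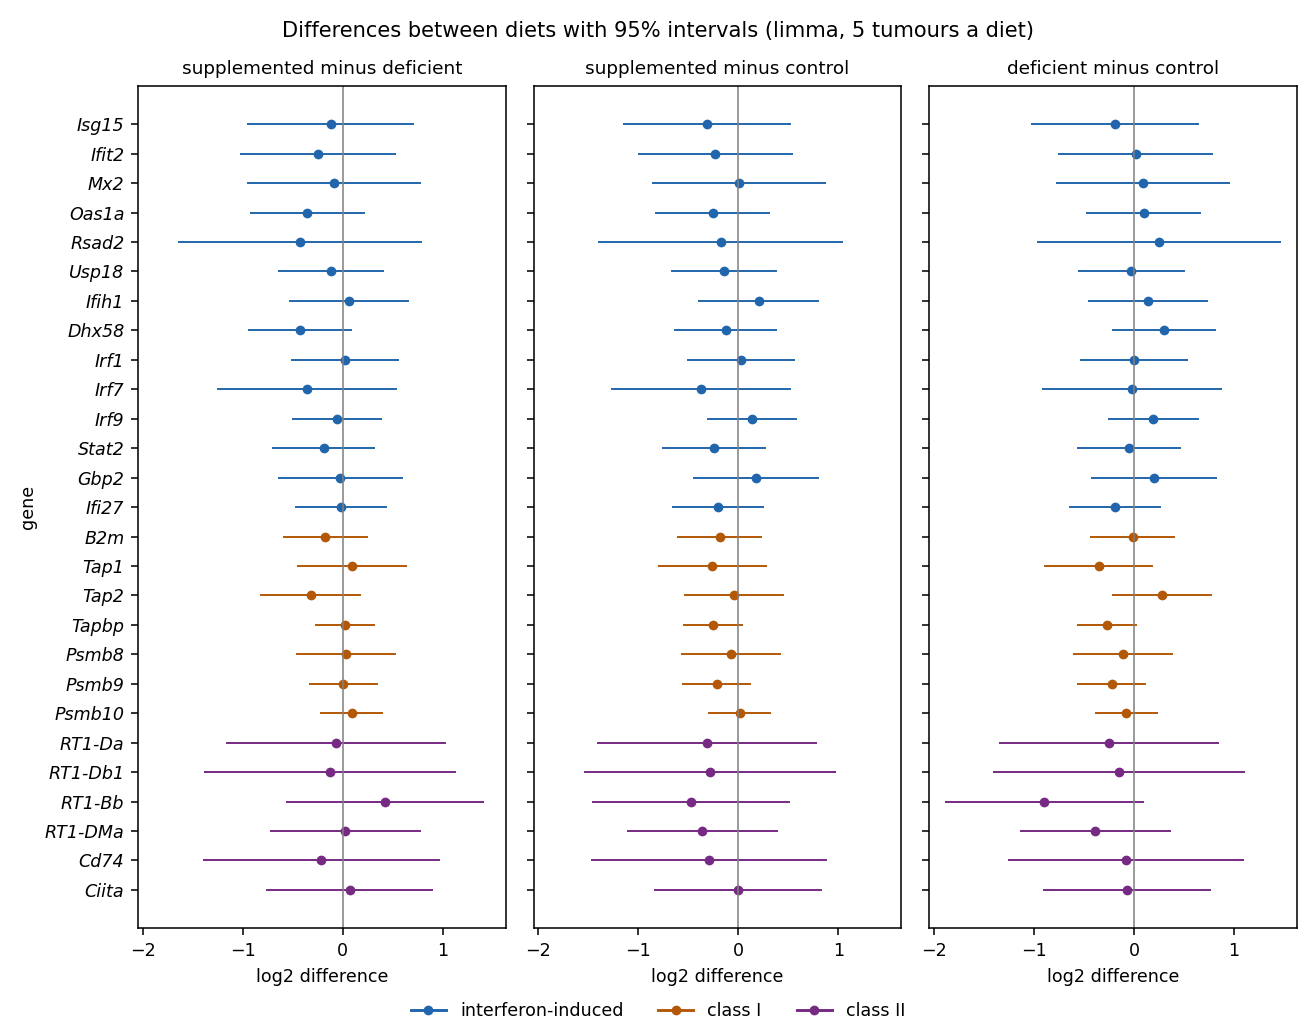
Log2 differences between diets with 95% intervals from limma for the 27 genes, which run down the page by class (blue, interferon-induced; orange, class I; purple, class II), in 3 panels: supplemented minus deficient, supplemented minus control and deficient minus control. Every interval includes 0, and the widest are those of RT1-Db1, Rsad2 and Cd74.

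Among the 14 interferon-induced genes, 2 had a higher mean in supplemented than in deficient tumours, and 12 a lower one, with a median log2 difference of -0.12; 5 were higher in supplemented than in control tumours, with a median of -0.16; and 9 were higher in deficient than in control tumours, with a median of 0.053. Over all probes 49.9%, 48.8% and 49.3% were higher in these comparisons (lower, 50.1%, 51.2% and 50.7%), and the medians were -0.0010, -0.0067 and -0.0046. Both directions that involve deficient tumours were unstable, and leaving out 1 tumour reversed both. Without deficient tumour 3, 10 of 14 genes were higher in supplemented than in deficient tumours (median 0.14) and 1 of 14 was higher in deficient than in control tumours (median -0.19). That tumour was not the only influence. The median of deficient minus control was also negative without control tumour 2 (-0.019, 6 of 14 higher) and with array weights (-0.14, 2 of 14 higher). With array weights 7 of 14 genes were higher in supplemented than in deficient tumours. Under normexp background correction, another way to remove background, the median of supplemented minus control was 0.11, of the opposite sign. With slide as a block the medians were 0.027, -0.15 and 0.014, and the differences of the class mean within single slides ran from -0.51 to 0.37 for supplemented minus deficient, -0.23 to 0.054 for supplemented minus control and -0.61 to 0.37 for deficient minus control.

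The transcription factors of the response come first, each with its 5 tumours of a diet in replicate order. Irf7, the interferon-induced factor that amplifies the type I response, had levels of 2.95, 2.59, 2.05, 3.38 and 2.42 in supplemented tumours, 2.48, 2.28, 4.95, 2.53 and 2.93 in deficient tumours and 3.49, 2.51, 3.35, 3.09 and 2.85 in control tumours. Deficient tumour 3 stood at 4.95, above all 14 others, and the other groups overlapped. The log2 difference was -0.36 for supplemented minus deficient (95% interval -1.25 to 0.53) and -0.38 for supplemented minus control (-1.27 to 0.51). Irf9, the DNA-binding partner of STAT2, had levels of 0.48, 0.20, 0.26, 0.80 and 0.61 in supplemented tumours, 0.082, 0.33, 1.32, 0.59 and 0.30 in deficient tumours and 0.47, 0.22, 0.22, 0.30 and 0.44 in control tumours. It was above background in all 15 tumours and highest in deficient tumour 3. Stat2, the STAT that is specific to interferon signalling of types I and III, had levels of -1.56, -1.40, -2.46, -2.03 and -1.53 in supplemented tumours, -2.05, -1.94, -0.97, -1.38 and -1.67 in deficient tumours and -1.51, -1.45, -1.50, -1.34 and -1.96 in control tumours. Stat2 was dim, above background in 3 of 5 tumours of each diet, and it was lowest in supplemented tumour 3. Irf1, a factor induced strongly by interferon gamma, had levels of -1.51, -1.49, -2.15, -1.83 and -1.51 in supplemented tumours, -2.10, -1.87, -1.04, -1.77 and -1.83 in deficient tumours and -2.18, -1.78, -2.16, -1.49 and -1.01 in control tumours. Irf1 was above background in 10 of 15 tumours and was highest in control tumour 5, with deficient tumour 3 next, whereas Irf7 was highest in deficient tumour 3.

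Effector genes showed the same tumour. Isg15, a ubiquitin-like modifier that is among the most strongly interferon-induced transcripts, had levels of 2.59, 2.59, 2.07, 2.65 and 2.51 in supplemented tumours, 1.67, 2.13, 4.39, 2.27 and 2.56 in deficient tumours and 3.16, 2.23, 3.42, 2.65 and 2.51 in control tumours. Deficient tumour 3 lay 1.85 above the median of the other 14 tumours, and control tumours 3 and 1 came next. Diet means of Isg15 were 2.48 ± 0.24, 2.60 ± 1.05 and 2.79 ± 0.49 in supplemented, deficient and control tumours (SD, n = 5 each), and the log2 differences of supplemented and of deficient from control tumours were -0.31 and -0.19, with 95% intervals of -1.14 to 0.52 and -1.02 to 0.64. Oas1a, which makes the second messenger that activates RNase L, had levels of 3.78, 3.53, 3.19, 3.83 and 2.91 in supplemented tumours, 3.59, 3.30, 4.69, 3.55 and 3.88 in deficient tumours and 4.06, 3.20, 4.09, 3.65 and 3.54 in control tumours. Again the highest was deficient tumour 3 and the lowest was supplemented tumour 5. Dhx58, the RNA sensor LGP2, had levels of -1.36, -1.68, -1.40, -1.20 and -1.52 in supplemented tumours, -0.74, -1.76, -0.24, -0.73 and -1.54 in deficient tumours and -1.28, -1.46, -1.13, -1.31 and -1.34 in control tumours. It had the smallest p of the class (supplemented minus deficient -0.43, 95% interval -0.94 to 0.079; limma, adjusted p = 0.729), and 3 deficient tumours (1, 3 and 4) lay above all supplemented tumours. Tumours 1 and 4 among these were also the dimmest arrays of that group, and under normexp the difference was 0.13. Gbp2, a guanylate-binding GTPase induced by interferon gamma, had levels of 2.84, 3.32, 2.69, 2.60 and 3.51 in supplemented tumours, 2.46, 2.25, 4.00, 3.51 and 2.85 in deficient tumours and 2.74, 2.72, 2.95, 3.01 and 2.66 in control tumours. Deficient tumour 3 was highest, followed by supplemented tumour 5 and deficient tumour 4, both of which were also high in class II genes.

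Deficient tumour 3 had the highest level of all 15 tumours for 11 of the 14 interferon-induced genes, where 15.3% of all tested probes were highest there. Rsad2, the antiviral radical-SAM enzyme viperin, was at 1.38 in that tumour against at most -0.72 elsewhere. Ifit2, which binds viral RNA, was at 0.56 in that tumour against at most -0.53 elsewhere. Mx2, a dynamin-like antiviral GTPase, was at 0.58 in that tumour against at most -0.14 elsewhere. Together with Isg15 and Irf7 these genes lay 1.45 to 3.11 above the median of the other 14 tumours. Ifih1, the RNA sensor MDA5, reached -0.48 in that tumour against at most -0.94 elsewhere. The 3 exceptions were Usp18, Irf1 and Ifi27. Usp18, the protease that removes Isg15 from proteins, was highest in deficient tumour 4, a dim array, at -0.095, with deficient tumour 3 next at -0.36. Irf1 was highest in control tumour 5. Ifi27, a mitochondrial protein with an ISRE pair in its promoter, ranged between 4.24 and 5.26, and stood at 5.04 in deficient tumour 3.

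Of the 6 listed genes whose probe did not pass, 3 interferon-induced ones were highest in the same tumour at low levels. Mx1 was above background in 1 deficient and 1 control tumour, and its deficient tumour 3 stood at -1.34, the highest of the 15. Gbp5 was above background in 1 deficient tumour, and its level in deficient tumour 3 was -1.68. Ifit3 reached -2.29 there without passing background. Oasl and Ifit1, above background on 0 arrays, went otherwise, at -3.92 and -3.64 in deficient tumour 3. Their highest levels were in deficient tumour 4 for Oasl and control tumour 2 for Ifit1. The second probes of Ifit2 and Rsad2 were above background on 1 and 0 arrays, and the within-diet correlation with the probe shown was 0.71 for Ifit2 and -0.068 for Rsad2, so Rsad2 rests on 1 probe. For Usp18 and Dhx58 the same correlation with an untested second probe was 0.17 and 0.18.

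**Figure D3:**
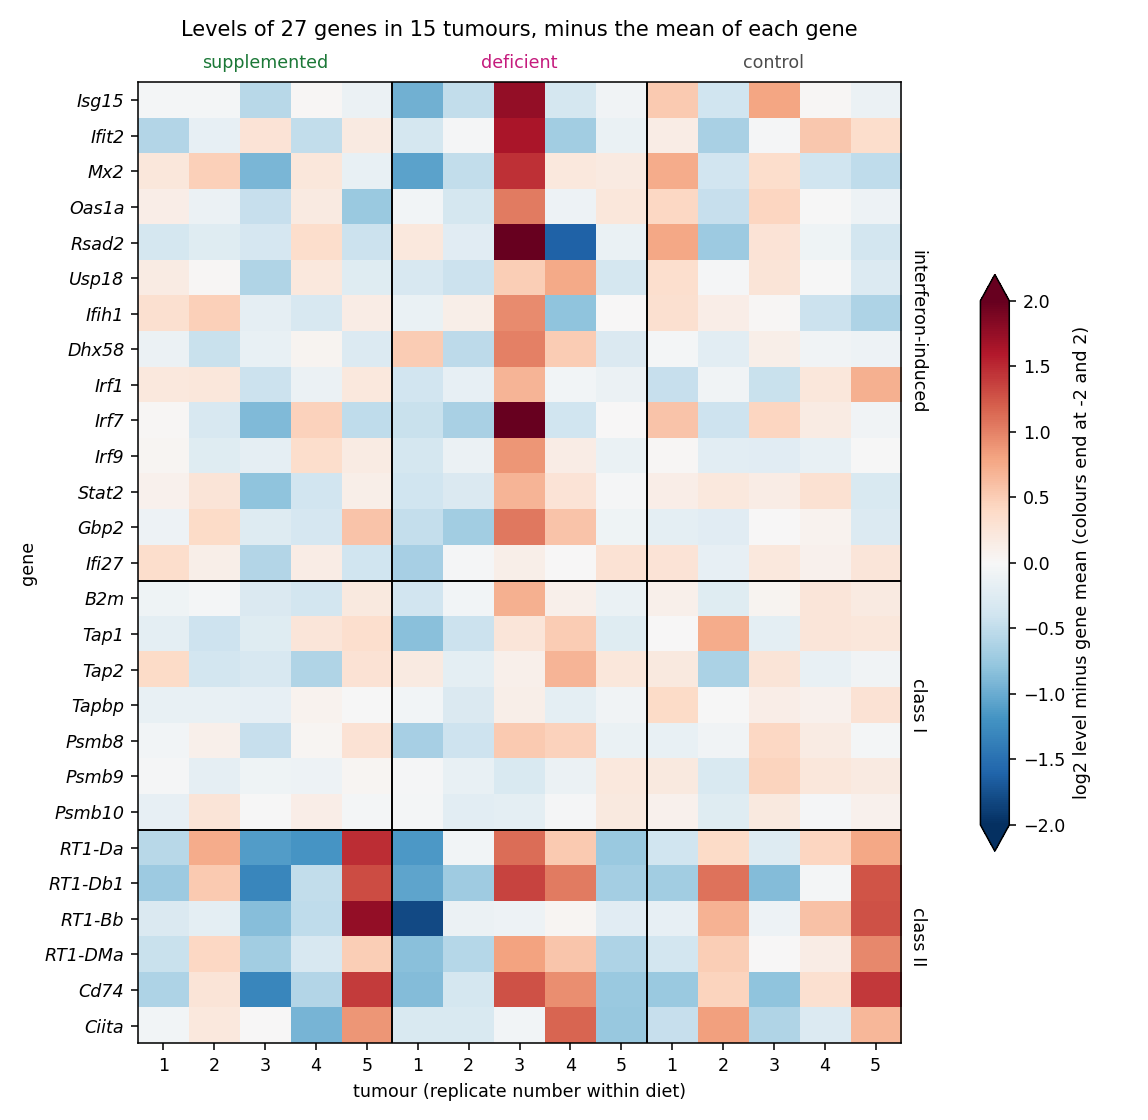
Log2 level of the 27 genes (rows, by class) in the 15 tumours (columns: supplemented, deficient, control, replicates 1 to 5), minus the mean of each gene; red is higher and blue lower, with colours ending at 2 and -2. Deficient tumour 3 is the darkest red column of the interferon-induced block. By its mean the class II block is reddest in supplemented tumour 5, deficient tumours 3 and 4 and control tumours 2 and 5. In deficient tumour 3 RT1-Bb and Ciita are near their means, and supplemented tumour 2 is a paler red in most class II genes.

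Many other interferon-induced genes, from a list of 64 that excludes the members, were also high in that tumour, but not all. Of the 35 that passed, 16 were highest in deficient tumour 3, where 15.3% of all tested probes were highest. Ifitm1, a membrane protein that blocks viral entry, was at 6.37 there against at most 5.12 elsewhere, and its relative Ifitm3 was at 5.69 against at most 4.47. Rtp4, an interferon-induced receptor chaperone, had 5.10 against at most 3.96. Some genes of the list were low there. Cxcl9 was at -0.060, Plac8 at 6.38 and Dtx3l at -0.96, against medians of 1.30, 7.52 and -0.36 in the other tumours. All genes named here were picked after their values were seen. The list's mean, relative to each gene's mean over the 15 tumours, was 0.56 in that tumour and between -0.33 and 0.15 in the others. Of 18 tested interferon, receptor and signalling genes 5 were highest there, among them Ifngr1, a chain of the interferon gamma receptor, at 1.99 against at most 1.23. The interferon genes Ifnb1 and Ifng and the receptor chain gene Ifnlr1 were above background on 0 arrays.

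In the same tumour the mean of 4 NK cell markers was 1.52 relative to the gene means, against -0.62 to 0.77 in the other tumours, that of 6 T cell markers was 1.40 against -1.49 to 1.92, and that of 12 macrophage markers was 0.85 against -0.53 to 0.87. Supplemented tumour 5, with a T cell mean of 1.92, had a mean of -0.10 over the interferon-induced members. Control tumour 5, with a macrophage mean of 0.87, had one of -0.10. The mean of the list of other interferon-induced genes was 0.15 in supplemented tumour 5 and -0.011 in control tumour 5. Many of these leukocyte markers were dim: Cd247, Cd4, Cd5 and Cd28 of the T cell list and Klrd1 and Ncr1 of the NK cell list were above background on 0 arrays. The part of immune cells in the interferon pattern was not tested.

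**Figure D4:**
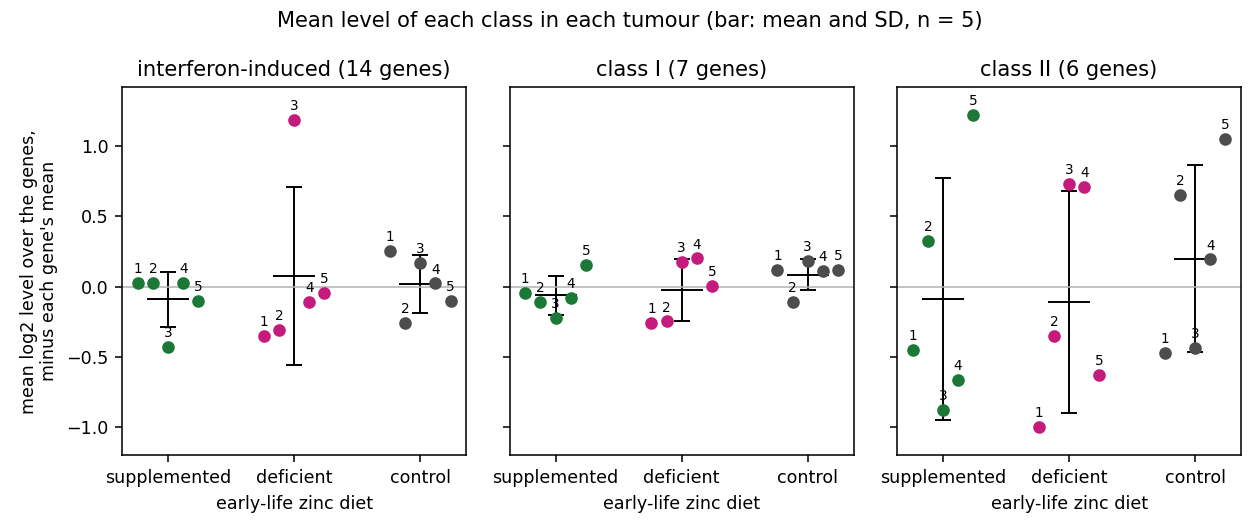
Mean log2 level of the 14 interferon-induced, 7 class I and 6 class II genes in each tumour, relative to each gene's mean over the 15 tumours, by early-life zinc diet; points are tumours with their replicate number, and bars are the mean and SD of 5 tumours. Deficient tumour 3 stands alone at 1.19 in the interferon-induced panel, class I means lie between -0.26 and 0.20, and class II means spread from -1.003 to 1.22 with every diet on both sides of 0.

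Class I genes were the steadiest of the 3 classes. Of 7 genes, 5 were higher in supplemented than in deficient tumours (median log2 difference 0.021), 1 was higher in supplemented than in control tumours (median -0.19) and 1 in deficient than in control tumours (median -0.11). With slide as a block the medians were 0.060, -0.14 and -0.17, and within single slides the class mean difference was -0.27 to 0.22, -0.27 to 0.039 and -0.38 to 0.0017. Under normexp the medians were -0.38, -0.66 and -0.28, each moved by more than the SD between tumours, with 0 members called. The log2 differences of B2m and Psmb9 for supplemented minus control were then -0.93 and -0.84. The median within-diet SD of the class was 0.29, against 0.39 over all tested probes.

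Tapbp, the chaperone tapasin that holds empty class I molecules at the peptide transporter, had the smallest p of any member against control. Its levels were 1.15, 1.15, 1.13, 1.37 and 1.28 in supplemented tumours, 1.24, 1.00, 1.42, 1.09 and 1.22 in deficient tumours and 1.68, 1.28, 1.42, 1.38 and 1.58 in control tumours. The log2 difference from control was -0.25 in supplemented tumours (95% interval -0.54 to 0.039; limma, adjusted p = 1.00) and -0.27 in deficient tumours (-0.57 to 0.018; limma, adjusted p = 0.987), and the groups overlapped. Psmb9, an immunoproteasome subunit, had levels of 4.95, 4.79, 4.88, 4.87 and 5.02 in supplemented tumours, 4.95, 4.83, 4.67, 4.86 and 5.18 in deficient tumours and 5.17, 4.66, 5.41, 5.20 and 5.16 in control tumours. Control tumours 1, 3, 4 and 5 lay above every supplemented tumour and every deficient tumour but the fifth, and control tumour 2, one of the dim arrays, was the lowest of the 15. The log2 difference of Psmb9 was -0.22 for supplemented and -0.22 for deficient minus control, with 95% intervals of -0.55 to 0.12 and -0.56 to 0.11.

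B2m, the light chain of class I molecules, had levels of 8.05, 8.12, 7.86, 7.77 and 8.34 in supplemented tumours, 7.76, 8.10, 8.87, 8.26 and 8.02 in deficient tumours and 8.25, 7.91, 8.21, 8.38 and 8.32 in control tumours. Deficient tumour 3 was highest, by 0.76 over the median of the others, and the other 3 B2m probes were also highest in that tumour. For deficient minus control the log2 difference was -0.014 on the B2m probe shown and 0.028, -0.074 and 0.25 on the others. The class I count in that comparison therefore depends on the B2m probe. With the authors' deposited values the probe shown gave -0.55 for deficient minus control. For supplemented minus deficient it gave 0.19 with those values and -0.17 in the main fit. Tap1, the transporter that carries peptides into the endoplasmic reticulum, had levels of -0.0088, -0.21, -0.046, 0.44 and 0.53 in supplemented tumours, -0.64, -0.24, 0.43, 0.71 and -0.043 in deficient tumours and 0.20, 0.93, 0.0040, 0.44 and 0.42 in control tumours. Control tumour 2 was highest and deficient tumour 1 lowest, both of them dim arrays. Tap2, its partner subunit, had levels of 1.72, 0.97, 1.01, 0.74 and 1.63 in supplemented tumours, 1.52, 1.15, 1.44, 2.02 and 1.56 in deficient tumours and 1.54, 0.71, 1.59, 1.20 and 1.27 in control tumours. The 2 subunits did not run in parallel: control tumour 2 had the highest Tap1 and the lowest Tap2 of all tumours. Psmb8, another immunoproteasome subunit, averaged 3.05 ± 0.28 in supplemented, 3.02 ± 0.52 in deficient and 3.12 ± 0.23 in control tumours, and Psmb10 averaged 5.52 ± 0.16, 5.43 ± 0.16 and 5.51 ± 0.16 in the same order (SD, n = 5 each). Tapbp, Psmb10 and Psmb9 were among the least variable probes on the array, with within-diet SDs at percentiles 0.690, 1.5 and 5.50 of all tested probes.

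Class II genes varied most, and they varied between tumours of every diet. Of 6 genes, 3 were higher in supplemented than in deficient tumours (median log2 difference -0.019), 0 were higher in supplemented than in control tumours (median -0.30) and 0 in deficient than in control tumours (median -0.20). These counts use the brighter of the RT1-Bb probes, which disagree. With the dimmer probe 2, 1 and 1 of the 6 genes were higher in these comparisons (medians -0.096, -0.29 and -0.12), and with RT1-Bb left out 2, 0 and 0 of the other 5 were (medians -0.064, -0.29 and -0.15). The medians against control depended on single tumours. Without supplemented tumour 3 the supplemented median was -0.039 and without supplemented tumour 5 it was -0.67, and without deficient tumour 1 the deficient median was 0.0037 and without deficient tumour 3 it was -0.52. Under normexp the 3 medians were -0.32, -0.82 and -0.34. With slide as a block the medians were -0.020, -0.20 and -0.15, and within single slides the class mean difference was -1.39 to 1.85, -0.93 to 0.60 and -1.25 to 1.16. The median within-diet SD was 0.86, and 4 of 6 genes, RT1-Da, RT1-Db1, RT1-Bb and Cd74, lay above the 90th percentile of all tested probes; of the interferon-induced genes 2 of 14 did, Rsad2 and Irf7, and of class I 0 of 7.

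Cd74, the invariant chain that escorts class II molecules to the endosome, had levels of 4.87, 5.73, 4.18, 4.90 and 6.88 in supplemented tumours, 4.61, 5.12, 6.75, 6.41 and 4.73 in deficient tumours and 4.74, 5.92, 4.68, 5.79 and 6.89 in control tumours. Supplemented tumour 5, deficient tumours 3 and 4 and control tumour 5 were high, and supplemented tumour 3 was lowest, 2.71 log2 units below the highest. RT1-Da, the alpha chain of the rat DR-type class II molecule, had levels of 3.03, 4.32, 2.47, 2.41 and 5.07 in supplemented tumours, 2.44, 3.53, 4.70, 4.11 and 2.84 in deficient tumours and 3.19, 3.97, 3.33, 4.02 and 4.36 in control tumours. RT1-DMa, a chain of the DM molecule that loads peptides onto class II, had levels of 1.80, 2.65, 1.56, 1.93 and 2.73 in supplemented tumours, 1.41, 1.67, 3.04, 2.80 and 1.62 in deficient tumours and 1.88, 2.74, 2.26, 2.40 and 3.20 in control tumours. In both genes those 4 tumours were among the 5 highest. Ciita, the master coactivator of class II genes, had levels of -1.82, -1.55, -1.75, -2.69 and -0.87 in supplemented tumours, -2.06, -2.05, -1.81, -0.59 and -2.51 in deficient tumours and -2.21, -0.94, -2.36, -2.03 and -1.10 in control tumours. Ciita was dim, above background in 4 supplemented, 2 deficient and 5 control tumours. Its highest level was in deficient tumour 4, a dim array. RT1-Db1, the matching beta chain, averaged 3.03 ± 1.05 in supplemented, 3.16 ± 1.12 in deficient and 3.31 ± 0.99 in control tumours (SD, n = 5 each).

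RT1-Bb, the beta chain of the DQ-type molecule, had the largest difference of any member, and its probes disagreed. The brighter probe had levels of 3.56, 3.66, 2.99, 3.34 and 5.61 in supplemented tumours, 2.04, 3.74, 3.75, 3.89 and 3.63 in deficient tumours and 3.68, 4.54, 3.75, 4.43 and 5.13 in control tumours. On that probe supplemented tumour 5 was high and deficient tumour 1 low, and the log2 difference was -0.90 for deficient minus control (95% interval -1.88 to 0.087; limma, adjusted p = 0.987). The dimmer probe had levels of -0.60, 1.78, -1.62, -0.83 and 0.86 in supplemented, -0.26, -0.93, 2.50, 2.49 and -0.70 in deficient and -1.25, -0.053, -1.24, 0.12 and 0.93 in control tumours. Deficient tumours 3 and 4 were the highest there, and the difference for deficient minus control was 0.92, of the opposite sign; for supplemented minus control the brighter probe gave -0.47 and the dimmer one 0.21. No direction is given for RT1-Bb. The second probes of RT1-Da and RT1-Db1 followed the first, with within-diet correlations of 0.94 and 0.97. RT1 genes form a family of similar copies that differ between rat haplotypes, and whether a probe reads more than 1 copy was not tested.

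The 6 class II genes varied together from tumour to tumour. After subtracting diet means, the mean correlation over their 15 gene pairs was 0.81 across 15 tumours (lowest pair 0.60), against 0.50 over 91 interferon-induced pairs, 0.20 over 21 class I pairs and 0.0048 over all pairs of tested probes. Without deficient tumour 3 these were 0.83, 0.17 and 0.24, so the interferon-induced value depended on that tumour and the class II value did not. The class II mean, relative to each gene's mean, was 1.22 in supplemented tumour 5, 0.73 and 0.71 in deficient tumours 3 and 4 and 0.65 and 1.05 in control tumours 2 and 5. It was lowest in supplemented tumour 3 at -0.88 and deficient tumour 1 at -1.003. These correlations carry no test, and the genes compared share their arrays; over the 15 arrays, without that subtraction, the log2 of the 75th percentile correlated at r = 0.28, 0.14 and -0.25 with the interferon-induced, class I and class II means, and at rho = 0.57, 0.096 and -0.23.

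Class II levels ran with markers of immune cells. Across 15 tumours, with diet means subtracted, the class II mean correlated at 0.92 with the mean of 7 leukocyte markers, 0.89 with 12 macrophage markers, 0.85 with 6 T cell markers and 0.53 with 4 NK cell markers, and at -0.0038 with 2 dendritic cell markers and -0.45 with 10 epithelial markers. For the interferon-induced mean the values were 0.31, 0.44, 0.35 and 0.60, and without deficient tumour 3 they were -0.10, -0.18, -0.079 and -0.16, while those of class II stayed at 0.91, 0.90, 0.83 and 0.44. Leukocyte marker means spanned -0.76 to 1.01 in supplemented, -0.40 to 0.68 in deficient and -0.26 to 0.95 in control tumours, so the diets overlapped. The macrophage scavenger receptors Cd163 and Marco were above background on 0 arrays. How much of the class II pattern comes from the number of immune cells was not tested.

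**Figure D5:**
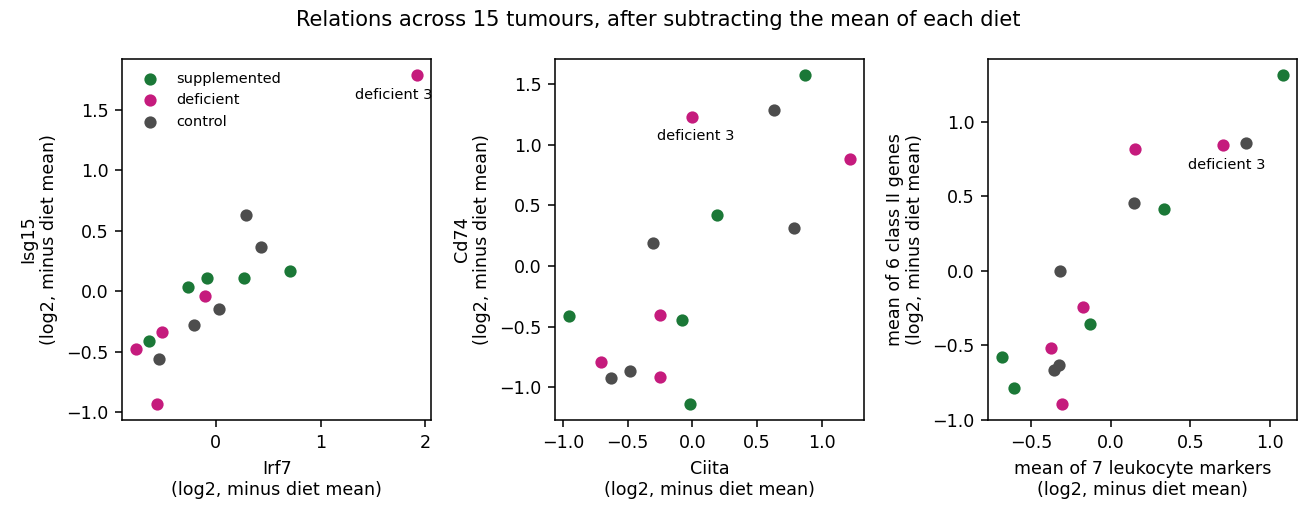
Each point is 1 of 15 tumours after subtracting the mean of its diet (log2 units): Isg15 against Irf7, Cd74 against Ciita, and the mean of 6 class II genes against the mean of 7 leukocyte markers, coloured by diet. In the left panel deficient tumour 3 lies far from the rest of a rising cloud (r = 0.93, and 0.75 without it). In the middle panel (r = 0.73, and 0.80 without it) its Ciita is near the diet mean and its Cd74 above it. In the right panel (r = 0.92) it lies among the other tumours.

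Genes were compared in 18 named pairs, of which 13 could be computed. Some pairs set a regulator against its target, and others set genes of different classes, or Ptprc and a member, against each other. A two-sided permutation test (100000 resamples) was used, with Benjamini-Hochberg adjustment over the 13. An adjusted p of 0.05 was passed by 6 pairs, among them Tap1 with Cd74 and Ptprc with Cd74, which hold no regulator. Irf7 and Isg15 had r = 0.93 and rho = 0.91 across 15 tumours (permutation p = 2e-05 and 1e-05, 1e-05 being the smallest these permutations can give; adjusted p = 0.00026 and 0.00013), and r was 0.85 without the 2 tumours farthest from the median of Irf7. Their relation held on both scan days, at 0.93 over 8 tumours and 0.87 over 7. Slides held 3 or 4 arrays each, too few for a value. Stat2 and Isg15 had r = 0.64 (permutation p = 0.00798, adjusted p = 0.018) and rho = 0.52 (permutation p = 0.0479, adjusted p = 0.092), with 0.62 and 0.65 on the 2 scan days and 0.44 without the 2 farthest tumours. Without deficient tumour 3 it was 0.43 and no longer passed, and with the authors' deposited log2 values it was 0.63 and did not pass.

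In the class II pathway Ciita and Cd74 had r = 0.73 and rho = 0.69 (permutation p = 0.00227 and 0.00562, adjusted p = 0.0098 and 0.018), 0.62 without the 2 farthest tumours and 0.83 and 0.73 on the 2 scan days. Ciita and RT1-Da had r = 0.68 and rho = 0.73 (permutation p = 0.00536 and 0.0027, adjusted p = 0.017 and 0.012), with 0.59, 0.79 and 0.52 in the same checks. Cd74 also ran with Ptprc, the pan-leukocyte antigen CD45, at r = 0.74 and rho = 0.75 (permutation p = 0.00106 and 0.0022, adjusted p = 0.0069 and 0.012; 0.76, 0.83 and 0.87 in the checks). Tap1 and Cd74, from different classes, had r = 0.66 and rho = 0.65 (permutation p = 0.00836 and 0.0101, adjusted p = 0.018 and 0.026; 0.66, 0.65 and 0.48), and did not pass with the deposited values (r = 0.57) or without the 3 dimmest arrays (r = 0.65). Under normexp background correction 3 pairs passed, of which Irf7 with Isg15 was the only one of these 6, and r turned to -0.32 for Stat2 with Isg15 and to -0.23 for Ciita with RT1-Da.

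The other 7 pairs did not pass. Isg15 with Tap1 had r = 0.21 (permutation p = 0.474, adjusted p = 0.56) and -0.43 without the 2 farthest tumours, Isg15 with Cd74 had r = 0.25 (permutation p = 0.398, adjusted p = 0.52) and -0.30 without them, and Ptprc with Isg15 had r = 0.14 (permutation p = 0.597, adjusted p = 0.64). Irf1 had r = 0.52 with Gbp2 (permutation p = 0.0475, adjusted p = 0.088), 0.41 with Tap1 (permutation p = 0.133, adjusted p = 0.22) and -0.26 with Psmb9 (permutation p = 0.344, adjusted p = 0.5). Ptprc with Tap1 had r = 0.13 (permutation p = 0.638, adjusted p = 0.64). Over the 7 pairs rho lay between -0.21 and 0.52 (permutation p between 0.0497 and 0.995, adjusted p between 0.092 and 0.995), r between -0.43 and 0.47 without the 2 farthest tumours, and r within scan days between -0.64 and 0.47. With 15 tumours a moderate relation can be missed.

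Among the named genes outside the list, those whose levels were most like the mean of each class over 15 tumours, after subtracting diet means, were ranked by Pearson's r, as a description. For the interferon-induced mean they were Mgst1 (0.95), Eci2 (0.92), Rtp4 (0.91), Spryd7 (0.90), Pkp2 (0.89), Ell (0.89), Smarcd2 (0.89) and Rnf215 (0.89). Without deficient tumour 3 these were between 0.52 and 0.87. For class I they included Pip5k1a (0.91), Fcgr3a (0.89), Slc15a4 (0.87), Chmp1a (0.85), Snap29 (0.85), Imp3 (0.85) and Ptges2 (0.84). The genes most like class II included RT1-Db2 (0.98), a paralog of RT1-Db1 whose probe may read the same transcripts, then Rhoh (0.95), Sit1 (0.94), Coro1a (0.93), Tnfrsf14 (0.93), Ptpn7 (0.92) and Nckap1l (0.91); Rhoh, Coro1a, Ptpn7 and Nckap1l are expressed mainly in blood cells.

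In the rest of the pathway no gene was called by limma: 0 of 18 interferon, receptor and signalling genes, 0 of 35 other interferon-induced genes and 0 of 38 other antigen processing genes were called in each of the 3 comparisons. Unadjusted, 0, 1 and 2 of these lists passed 0.05 in supplemented against deficient tumours, 0, 1 and 1 in supplemented against control tumours and 0, 3 and 3 in deficient against control tumours, where 7.05%, 1.98% and 3.91% of all probes passed, in the order of the comparisons. The lists' median differences were 0.030, -0.064 and 0.067 for supplemented minus deficient, 0.064, -0.064 and -0.054 for supplemented minus control and 0.010, 0.0068 and -0.17 for deficient minus control. Gch1, the rate-limiting enzyme of tetrahydrobiopterin synthesis, had the smallest p: it averaged -3.02 ± 0.66 in supplemented, -1.53 ± 0.43 in deficient and -2.38 ± 0.52 in control tumours (SD, n = 5 each), with -1.48 for supplemented minus deficient on the log2 scale (95% interval -2.16 to -0.81, limma, adjusted p = 0.615), and it was above background on 6 arrays. Lgmn, a lysosomal protease that processes antigens for class II, averaged 2.50 ± 0.38, 1.74 ± 0.28 and 2.35 ± 0.29 in the same order, with 0.76 for supplemented minus deficient (0.32 to 1.20, limma, adjusted p = 0.661). Pdia3, a disulfide isomerase of the class I loading complex, averaged 3.49 ± 0.44, 2.73 ± 0.46 and 3.28 ± 0.24, with 0.76 (0.24 to 1.28, limma, adjusted p = 0.661).

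For the other genes named by the rule the adjusted limma p lay between 0.713 and 1.00 in the comparison with their smallest p. For supplemented minus deficient, the log2 difference of Irf2, a repressor of interferon-induced genes, was -0.41, that of Tbk1, the kinase that activates IRF3, 0.40 and that of Plac8 0.72. For supplemented minus control, the log2 difference of Tlr3, a sensor of double-stranded RNA, was -0.42 and that of the class I gene RT1-CE7 -0.43. For deficient minus control, the log2 difference of Ifnar1, a chain of the type I interferon receptor, was 0.30, that of Oas1i -0.49, that of Trim21, an antibody receptor and ubiquitin ligase, 0.46 and that of Creb1 0.49. Ifnar1, Irf2, Trim21 and Creb1 had their highest level in deficient tumour 1, the array with the lowest 75th percentile, and the part of brightness in these differences was not tested.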

How the data were processed

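RNA of 15 tumours was read on 15 single-colour Agilent rat arrays. Spot intensity on a linear scale, deposited by the authors, had its background subtracted and its spatial trend removed, per the file headers, in version 11.5.1.1 of Agilent Feature Extraction (the submitters' processing notes name version 15.5). A second table deposited by the authors holds log2 values for 30002 of 41012 probes, made by steps not given in the sources used here. Medians of its arrays were 7.09 to 7.10, its columns followed the log2 median signal with r of 0.984 to 1.000, and it served as an alternative. One label field describes mammary gland at day 21; the tissue and design labels, which give tumours at day 180, were followed, and the group labelled as control was read as the adequate diet.

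Levels were log2 processed intensity minus the 75th percentile of the array. Spots marked as outliers were set to missing (40 values), spots of a probe were averaged, and a probe was tested if 5 or more of 15 arrays had it well above background. Genes were named through RefSeq (GRCr8): 17502 probes (42.7%) matched 1 gene. Where several probes of a gene passed, the brightest stands for it. The 3 diets were compared in R 4.3.3 by limma's moderated test (limma 3.58.1, two-sided, Benjamini-Hochberg over all tested probes, threshold 0.05), and the fit was tested on simulated data. Alternatives were normexp, the deposited values, quantile normalization, no filter, blocks for slide, scan day and replicate number, array brightness, array weights, the other RT1-Bb probe or none (chosen after the values were seen) and leaving out single tumours or the dimmest arrays. The number of arrays limits the precision. Normexp (offset 50) used median spot signals, since mean signals are absent from these files. Correlations used scipy 1.17.1 (Python 3.11.15). All members are named; 15 values are given for 11 genes chosen as regulators and targets and for the 2 members of each class with the smallest p in each comparison; 4 genes of each pathway list and 8 genes most like each class were named by the smallest p and the highest r. Some genes that these rules name are not reported here. Other named genes were chosen after their values were seen. The members and lists were chosen with earlier results of these data known.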

Additional observations from a re-analysis of the deposited data

Results flagged for a closer look

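Among 81 groups of 5 tumours (27 genes in 3 diets), 7 values stood apart from the other 4 of their diet by Dixon's gap test, where chance flags about 1 in 20 groups. In deficient tumour 3 Irf7 stood at 4.95, with the next deficient tumour at 2.93, and Ifit2 at 0.56, with the next at -1.09. In the class II pathway the brighter RT1-Bb probe stood at 5.61 in supplemented tumour 5, with the next supplemented tumour at 3.66, and at 2.04 in deficient tumour 1, below the next at 3.63. Isg15 was low in supplemented tumour 3 at 2.07, below the next at 2.51. Rsad2 was high in supplemented tumour 4 at -1.15, with the next at -1.73. Stat2 was low in control tumour 5 at -1.96, with the next at -1.51, and was not well above background there.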

How the results depend on the processing

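No member was called in any of 25 alternative settings (2025 recomputed differences, lowest by limma, adjusted p = 0.33, for Oas1a under normexp); 2001 moved by less than the spread between tumours and 24 by more, 20 of them under normexp, 2 with array weights and 2 with the deposited values. Over all probes, array weights called 1 probe in supplemented minus deficient and 1 in the F test, and leaving out single tumours called 0 to 1 in supplemented minus deficient (1 without supplemented tumour 1) and 0 in the other comparisons. Under normexp the class I medians were -0.38 for supplemented minus deficient, -0.66 for supplemented minus control and -0.28 for deficient minus control; the cause was not tested. Leaving out single tumours gave medians of -0.33 to 0.14, -0.19 to -0.077 and -0.19 to 0.14 for the interferon-induced genes, -0.076 to 0.058, -0.25 to -0.12 and -0.21 to -0.037 for class I and -0.31 to 0.22, -0.67 to -0.039 and -0.52 to 0.0037 for class II, in the order supplemented minus deficient, supplemented minus control and deficient minus control. The interferon-induced median of supplemented minus control was 0.11 under normexp. Of the 13 pairs, 6 passed, 3 under normexp, 4 with the deposited values (Stat2 with Isg15 and Tap1 with Cd74 lost), 5 without the 3 dimmest arrays (Tap1 with Cd74 lost) and 5 without deficient tumour 3 (Stat2 with Isg15 lost), a setting chosen after the values were seen; 6 passed in each of the other 3 settings. Under normexp the correlation of Stat2 with Isg15 was -0.32 and that of Ciita with RT1-Da -0.23, both of the opposite sign, and Irf1 with Psmb9 (-0.81) and Irf1 with Tap1 (0.65) passed. Without a filter on dim probes the median of all probes was -0.14 for supplemented minus deficient and 0.11 for deficient minus control.

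Replicate numbers gave no sign of pairing: same-numbered tumours of different diets correlated at -0.28 to 0.22 in their deviations from the diet means. Those with different numbers correlated at -0.30 to 0.34. A pairing that leaves no such correlation cannot be seen this way. With the replicate number as a block 0 probes were called in each comparison and in the F test, and no call changed. With 5 tumours a diet the intervals of the class II genes other than Ciita include changes of more than 2-fold, and genes near background, Stat2, Ciita and Irf1 among them, are read less surely.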

Other observations

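The mean of the 38 other antigen processing genes, relative to each gene's mean over 15 tumours, lay between -0.086 and 0.030 in supplemented, -0.21 and 0.24 in deficient and -0.053 and 0.20 in control tumours. Of these genes 11 were highest in deficient tumour 3, where 15.3% of all tested probes were highest. Among the 11 were the class I genes RT1-CE1, at 5.96 against at most 5.45 elsewhere, and RT1-M3-1, at 3.63 against at most 2.93. Ctss, the lysosomal protease cathepsin S that cleaves the invariant chain, was another, at 4.93 against at most 4.48. Others of the list were low there, such as RT1-A3 at -1.25 and Nfyb at 0.68, against medians of -0.55 and 1.42 in the other tumours. These examples were chosen after their values were seen. The non-classical class II genes RT1-DOa and RT1-DOb, which in other mammals are expressed mainly in B cells, were above background on 0 arrays, as were 5 of 5 measured B cell and plasma cell markers. The mean of 4 red cell markers lay between -1.49 and -0.52 in supplemented, 0.52 and 2.69 in deficient and -1.72 and 1.02 in control tumours, with 0 of 4 genes called by limma and 4 of 4 at an unadjusted p under 0.05 in supplemented against deficient tumours, where 7.05% of all probes passed. In deficient against control tumours 3 of 4 passed unadjusted and in supplemented against control 0 of 4, where 3.91% and 1.98% of all probes passed. The red cell mean correlated across 15 tumours at 0.15 with the class II mean, -0.32 with class I and -0.23 with the interferon-induced mean. Without deficient tumour 3 these were 0.14, -0.37 and -0.60.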
